A study of Schizosaccharomyces pombe with 6 samples.

Results

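The genes described here are 10 core stress genes of the fission yeast Schizosaccharomyces pombe, namely atf1, pyp2, gpd1, hsp9, tps1, ntp1, fbp1, ish1, rds1 and isp3. They were chosen as a list of symbols for the Atf1 pathway, its phosphatase, glycerol and trehalose metabolism and stress-responsive targets, and each symbol was matched to its systematic ID. All 10 were found among the 5483 annotated features measured on each array, 5 on chromosome I and 5 on chromosome II.

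Expression was measured on 6 Affymetrix tiling arrays, 2 biological replicates for each of 3 strains: the wild-type parent (SPB76), cid14delta (SPB101) and air1delta (SPB103). Both deleted genes encode subunits of TRAMP, a complex that tags nuclear RNAs with short poly(A) tails for decay by the exosome: cid14 its poly(A) polymerase and air1 its RNA-binding partner. All strains grew without an added stress in rich YES medium at 30 °C and were harvested at an optical density of 0.5, so the values below are levels in growing cultures. The labels name no other genotype, and whether a deletion strain stands for 1 clone is not given in the sources used here. The air1delta arrays belong to another array series than the other 4 arrays, so strain and array series cannot be told apart wherever air1delta is compared. Both mutants were set against the same 2 wild-type arrays, so their changes are not independent of each other.

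In fission yeast, stress signals pass through a kinase cascade to the MAP kinase Sty1, which phosphorylates the bZIP transcription factor Atf1. Atf1, together with its partner Pcr1, drives many of the genes that are induced by a wide range of stresses. Among those genes is pyp2, whose product dephosphorylates Sty1 and so closes a negative feedback loop.

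As a check of the labels, cid14 had log2 signals of 8.92 and 8.84 (wild type), 3.91 and 3.63 (cid14delta) and 8.996 and 8.95 (air1delta). That of air1 was 10.49 and 10.40 (wild type), 10.46 and 10.64 (cid14delta) and 4.42 and 4.90 (air1delta). Each deletion strain had a low signal of its own deleted gene. Array medians lay between 9.21 and 9.29. The highest value of a deleted gene on its own arrays, 4.90, was taken as the level without transcript, and all 10 stress genes lay above it on every array.

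The genes hsp9, pyp2 and ish1 had the largest positive changes in cid14delta, with all 4 mutant arrays above both wild-type arrays. In air1delta the arrays of fbp1 and ntp1 also lay above wild type, and those of rds1 and tps1 below it. In bulk RNA a change in the number of cells of a kind and a change in RNA per cell cannot be told apart. In cid14delta against wild type, limma called 0 of the 10 genes at an adjusted p under 0.05 (Benjamini-Hochberg over all features). Of all features 8.66% were called there. An unadjusted p under 0.05 was found for 3 of the 10 and for 29.9% of all features. In air1delta against wild type limma called 2 of the 10, pyp2 and ish1, both higher, where 26.2% of all features were called. There 4 of the 10 had an unadjusted p under 0.05, against 41.2% of all features. The share of called stress genes was therefore not above that of all features in either mutant. Between air1delta and cid14delta 0 of the 10 were called, where 10% of all features were called. There 1 of the 10 had an unadjusted p under 0.05, against 31.9% of all features.

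The arrays of both groups did not overlap for 4 of the 10 genes in cid14delta against wild type (62.7% of all features), for 7 in air1delta against wild type (69.0%) and for 5 between the mutants (65.2%). The median log2 change over the 10 genes was 0.05 in cid14delta and 0.10 in air1delta, beside 0.03 and 0.03 over all features. In cid14delta 6 of the 10 changes were smaller in size than 0.1, against 38.6% of all features, and in air1delta 3 of the 10, against 29.6%.

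**Figure D1:**
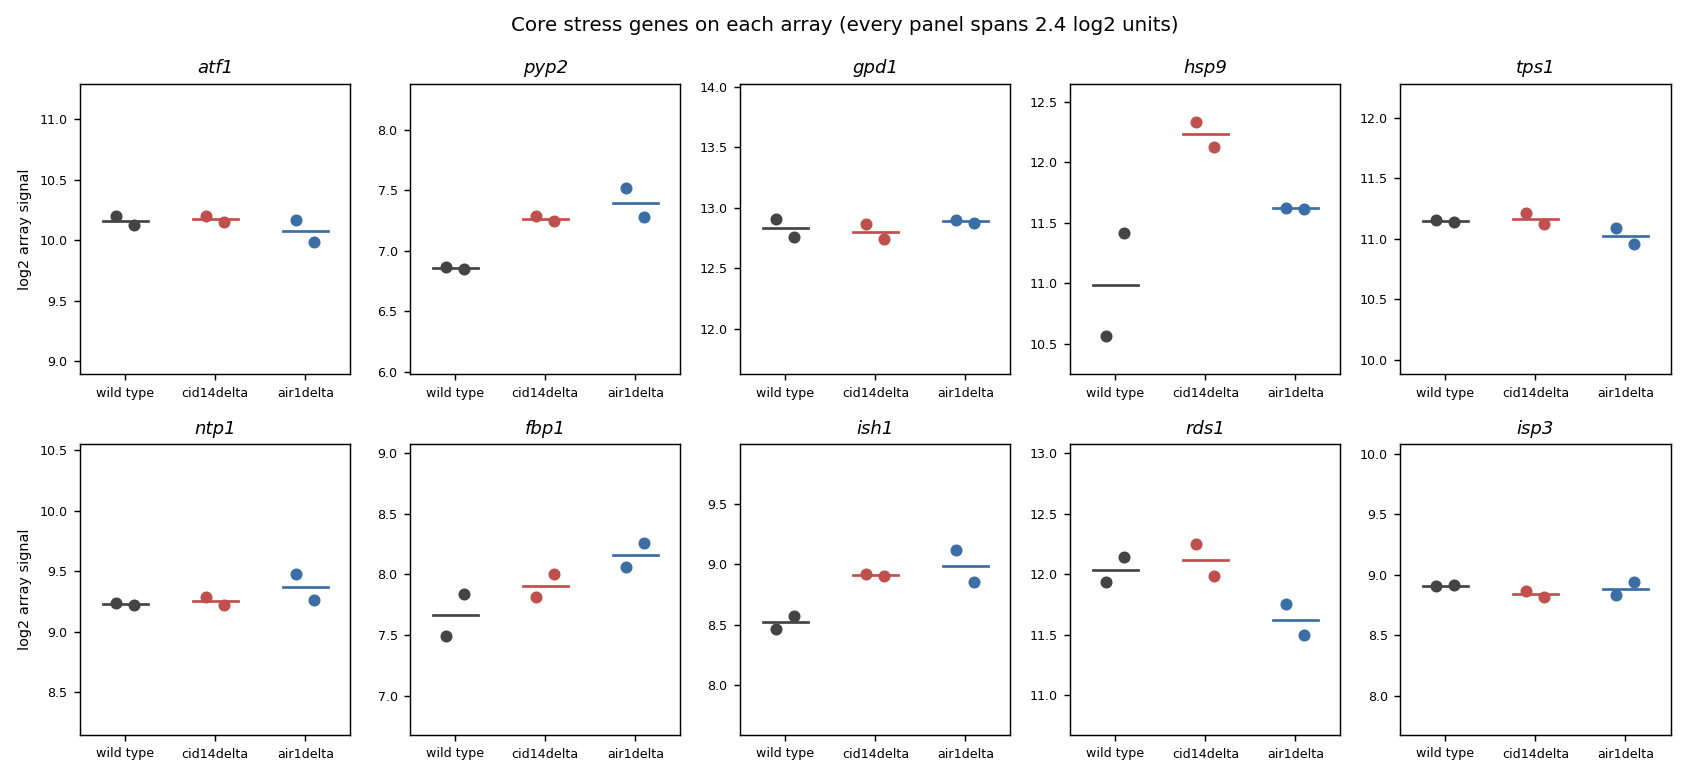
The log2 array signal of each of the 10 genes (vertical axis) on each of the 6 arrays, grouped by strain. Points are single arrays with replicate 1 to the left of replicate 2, bars are strain means, and every panel spans the same range. The pyp2 and ish1 points of both mutants lie above both wild-type points, and the wild-type points of hsp9 lie 0.85 apart.

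The transcription factor gene itself, atf1 (SPBC29B5.01), had log2 signals of 10.20 and 10.12 (wild type), 10.20 and 10.15 (cid14delta) and 10.17 and 9.99 (air1delta). The strains overlapped. The log2 change was 0.01 ± 0.08 in cid14delta (± SE of the model, n = 2 arrays per strain here and throughout; limma adjusted p = 0.951) with a 95% confidence interval from -0.19 to 0.21. In air1delta it was -0.09 ± 0.08 (limma adjusted p = 0.465) with an interval from -0.29 to 0.12. A change within these intervals could not be seen at this number of arrays.

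The feedback phosphatase gene pyp2 (SPAC19D5.01) had log2 signals of 6.86 and 6.85 (wild type), 7.28 and 7.24 (cid14delta) and 7.51 and 7.28 (air1delta). All 4 mutant arrays lay above both wild-type arrays, and the mutants overlapped with each other. In air1delta pyp2 rose by 0.54 ± 0.09 on the log2 scale (1.46-fold, limma adjusted p = 0.016). In cid14delta the change was 0.41 ± 0.09 (1.32-fold), which did not pass the test (limma adjusted p = 0.053; 95% confidence interval 0.18 to 0.63). The difference between the mutants was 0.14 ± 0.09 (limma adjusted p = 0.339), with an interval from -0.09 to 0.36. The air1delta call was lost after quantile normalization, where the change was 0.35 (limma adjusted p = 0.057). Without wild type replicate 2 the air1delta change was 0.53, and without air1delta replicate 1 it was 0.43. Such fits leave 1 array in a strain, so their test results were not read.

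The gene ish1 (SPBC365.12c), which encodes a stress-responsive protein of the nuclear envelope, had log2 signals of 8.47 and 8.58 (wild type), 8.92 and 8.90 (cid14delta) and 9.11 and 8.85 (air1delta). As with pyp2, all 4 mutant arrays lay above both wild-type arrays. In air1delta ish1 rose by 0.46 ± 0.10 (1.38-fold, limma adjusted p = 0.028). In cid14delta the change was 0.39 ± 0.10 (1.31-fold) and did not pass (limma adjusted p = 0.0725; interval 0.14 to 0.64). The mutants differed by 0.07 ± 0.10 (limma adjusted p = 0.65; interval -0.18 to 0.32). The air1delta call was lost after quantile normalization (0.34, limma adjusted p = 0.0752). When single arrays were left out, the air1delta change ran from 0.333 to 0.592. The test results of these fits were not read, since 1 array was left in a strain.

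The target was double-stranded, so signal from a stretch that overlapping genes share could not be assigned to either of them. The length of each overlap was not measured. In the reference gene table all 10 genes overlap another annotated gene or noncoding RNA, and 4 of them overlap a second measured feature: pyp2 with emc10, tps1 with dbl4, ish1 with grp2, and rds1 with SPAC343.20. The feature grp2 (SPBC365.11) had log2 signals of 7.93 and 7.68 (wild type), 8.18 and 8.28 (cid14delta) and 8.39 and 8.20 (air1delta). It rose by 0.49 ± 0.11 in air1delta (limma adjusted p = 0.0324), close to the rise of ish1, and its change in cid14delta was 0.42 ± 0.11 (limma adjusted p = 0.0778). Across the 6 arrays ish1 and grp2 correlated at Pearson r = 0.881, as a description of points that share their arrays. Which of them carried the signal cannot be told apart in these data.

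The other overlapping pairs did not share their changes in this way. The feature emc10 had changes of 0.07 ± 0.08 in cid14delta (limma adjusted p = 0.598) and -0.20 ± 0.08 in air1delta (limma adjusted p = 0.129), beside the higher pyp2. The feature dbl4 (SPAC328.02) rose by 0.36 ± 0.06 in cid14delta (limma adjusted p = 0.0306) and by 0.37 ± 0.06 in air1delta (limma adjusted p = 0.0145), beside a tps1 that did not pass the test in either mutant. The feature SPAC343.20 had a signal no higher than that of a deleted gene on any array and has no readable change.

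**Figure D2:**
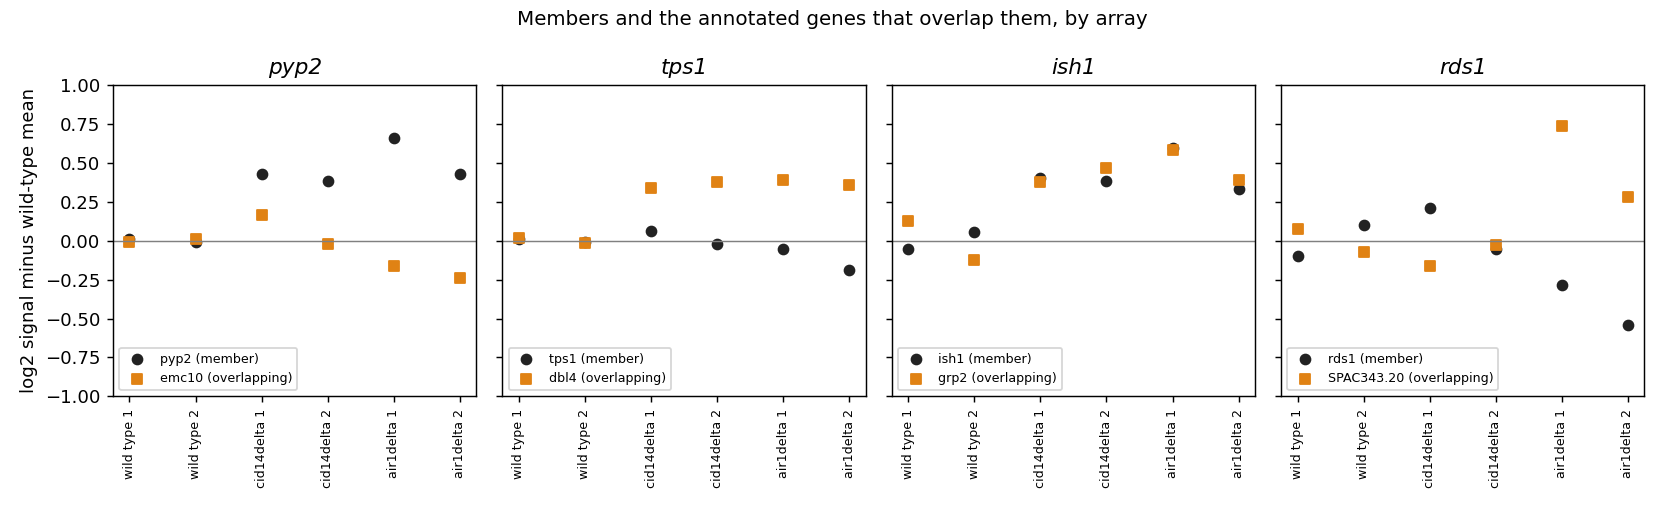
The log2 signal of 4 of the genes (circles) and of the measured features that overlap them (squares), each minus its own wild-type mean (vertical axis), on the 6 arrays (horizontal axis). The ish1 and grp2 points lie close together in both mutants, while in wild type their replicates move in opposite directions. Those of pyp2 and emc10, and of tps1 and dbl4, separate in the mutants.

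The gene hsp9 (SPAP8A3.04c) encodes a small stress protein related to Hsp12 of budding yeast, and it had the largest change of the 10 in both mutants. Its log2 signal was 10.56 and 11.41 (wild type), 12.33 and 12.13 (cid14delta) and 11.62 and 11.61 (air1delta). The cid14delta arrays were the highest and the wild-type arrays the lowest, with no overlap among the 3 strains. The wild-type arrays differed by 0.85, a gap reached by 1.13% of all features in wild type. In cid14delta the change was 1.24 ± 0.27 (2.37-fold), the 20th largest positive change of all features, but it did not pass the test (limma adjusted p = 0.051; 95% confidence interval 0.57 to 1.92).

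The hsp9 values depended on which wild-type array was used. Without wild type replicate 1 the change in cid14delta was 0.82, and without wild type replicate 2 it was 1.67. With 1 wild-type array the gap between the wild-type arrays no longer enters the error, so the test result of such a fit was not read. In air1delta the change was 0.63 ± 0.27 (1.55-fold, limma adjusted p = 0.139; interval -0.04 to 1.30). It was 0.21 without wild type replicate 1, and 1.06 without wild type replicate 2. Between the mutants hsp9 was lower in air1delta by a log2 change of -0.61 ± 0.27 (limma adjusted p = 0.184). That difference passed when only the 4 mutant arrays were fitted, which leaves out the wild-type spread (limma adjusted p = 0.0363).

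**Figure D3:**
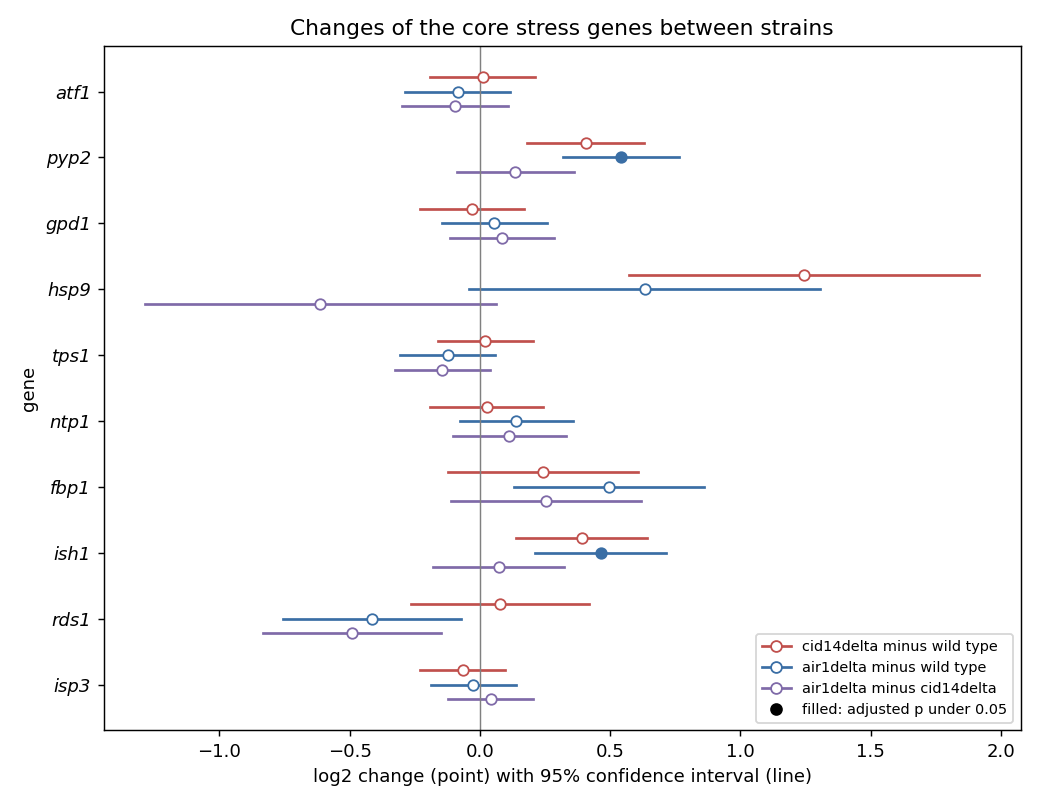
The log2 change of each gene (horizontal axis, points) with its 95% confidence interval (lines) in cid14delta minus wild type, air1delta minus wild type and air1delta minus cid14delta. Filled points passed limma's test; these are pyp2 and ish1 in air1delta, and the widest intervals are those of hsp9.

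The metabolic genes of the list are led by gpd1 (SPBC215.05), which encodes the glycerol-3-phosphate dehydrogenase that makes glycerol under osmotic stress. Its log2 signal was 12.91 and 12.76 (wild type), 12.86 and 12.74 (cid14delta) and 12.90 and 12.88 (air1delta). Both mutants overlapped with wild type, with changes of -0.03 ± 0.08 in cid14delta (limma adjusted p = 0.84) and 0.06 ± 0.08 in air1delta (limma adjusted p = 0.63). The intervals ran from -0.23 to 0.17 and from -0.14 to 0.26.

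Trehalose, a sugar that protects cells under stress, is made by way of the synthase encoded by tps1 (SPAC328.03) and broken down by the neutral trehalase encoded by ntp1 (SPBC660.07). The log2 signal of tps1 was 11.16 and 11.14 (wild type), 11.21 and 11.12 (cid14delta) and 11.09 and 10.96 (air1delta). Its air1delta arrays were the lowest, but the change of -0.12 ± 0.07 did not pass (limma adjusted p = 0.254; interval -0.31 to 0.06), and the change in cid14delta was 0.02 ± 0.07 (limma adjusted p = 0.881). The log2 signal of ntp1 was 9.24 and 9.22 (wild type), 9.29 and 9.22 (cid14delta) and 9.48 and 9.26 (air1delta). Its air1delta arrays lay above wild type with a change of 0.14 ± 0.09 that did not pass (limma adjusted p = 0.276; interval -0.08 to 0.36), and the change in cid14delta was 0.03 ± 0.09 (limma adjusted p = 0.863).

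The gene fbp1 (SPBC1198.14c) encodes fructose-1,6-bisphosphatase of gluconeogenesis. It is repressed by glucose through protein kinase A and is driven by Atf1-Pcr1 and the zinc finger factor Rst2 when glucose runs out. Its log2 signal was 7.49 and 7.84 (wild type), 7.81 and 8.004 (cid14delta) and 8.06 and 8.26 (air1delta). Wild type and cid14delta overlapped, and the air1delta arrays were above all others. The change in air1delta was 0.50 ± 0.15 (1.41-fold) and did not pass (limma adjusted p = 0.0579; interval 0.13 to 0.86), and in cid14delta it was 0.24 ± 0.15 (limma adjusted p = 0.324). Without wild type replicate 2 the air1delta change was 0.67, and without wild type replicate 1 it was 0.32.

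The remaining genes are rds1 and isp3. The gene rds1 (SPAC343.12), named for its response to nutrients and stress, had log2 signals of 11.94 and 12.14 (wild type), 12.25 and 11.99 (cid14delta) and 11.75 and 11.50 (air1delta). Its air1delta arrays lay below those of both other strains. The change was -0.41 ± 0.14 in air1delta (limma adjusted p = 0.0786; interval -0.76 to -0.07) and 0.08 ± 0.14 in cid14delta (limma adjusted p = 0.738). Its difference between the mutants, -0.49 ± 0.14, had the smallest p of the 10 genes in that comparison and did not pass (limma adjusted p = 0.0781).

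**Figure D4:**
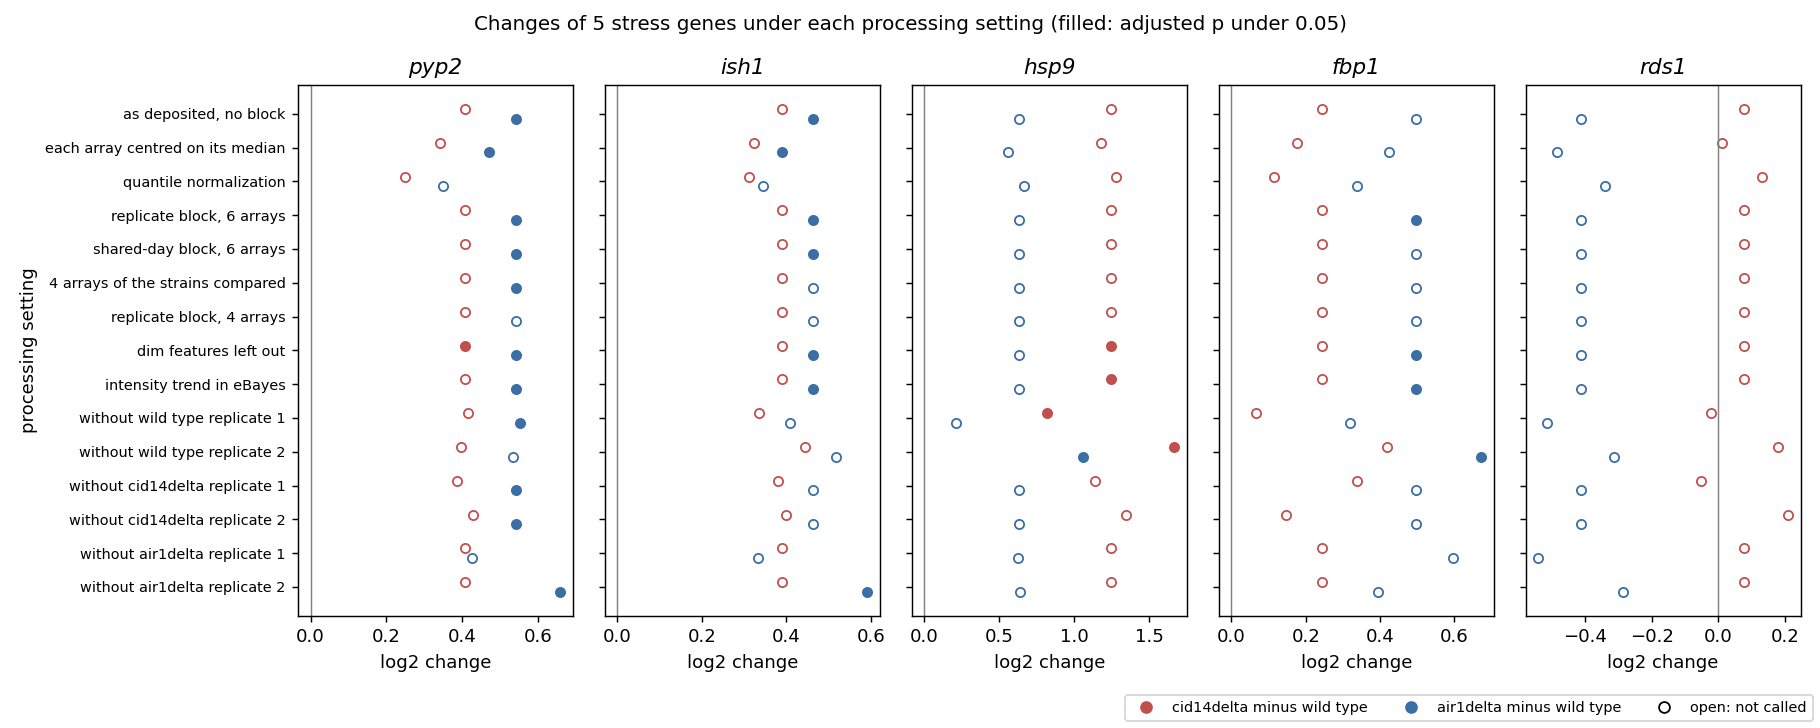
The log2 change of 5 of the genes (horizontal axis, with its own range in each panel) in cid14delta minus wild type (red) and air1delta minus wild type (blue) under each way of processing the arrays (vertical axis). Filled points passed limma's test, which was not read in fits without a single array. The pyp2 and ish1 changes stay positive throughout, and leaving out a wild-type array moves hsp9 most.

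The gene isp3 (SPAC1F8.05) encodes a protein of the outer spore coat and is known as induced in sexual development. Its log2 signal was 8.91 and 8.91 (wild type), 8.87 and 8.82 (cid14delta) and 8.83 and 8.94 (air1delta). The cid14delta arrays lay just below wild type, and the air1delta arrays lay on both sides of it. The changes were -0.07 ± 0.06 in cid14delta (limma adjusted p = 0.547) and -0.02 ± 0.06 in air1delta (limma adjusted p = 0.801), the narrowest errors of the 10.

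Among the 10 profiles over the 6 arrays, pyp2 and ish1 were each other's nearest (Pearson r = 0.979), and tps1 and rds1 were each other's nearest (r = 0.93). The gene most like atf1 within the list was tps1 (r = 0.919), and for isp3 the highest value was 0.242, with gpd1. These correlations describe 6 arrays that share strains and processing. Over all features, the profiles closest to atf1 after centring each on its own mean were those of rpl1502 (root mean square distance 0.0201 log2 units), SPBP22H7.04 (0.0222), gid9 (0.0229), ppb1 (0.0246) and SPNCRNA.247 (0.0249), the last of which lay below the level of a deleted gene. In all 5, as in atf1, air1delta replicate 2 was the lowest array.

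The counts of called genes in the lists below stand against the 8.66% of all features called in cid14delta and the 26.2% called in air1delta. Their counts at an unadjusted p under 0.05 stand against 29.9% of all features in cid14delta and 41.2% in air1delta. Of 9 genes for the phosphorelay and the kinases from mak1, mak2 and mak3 down to sty1, 0 were called in either mutant, with log2 changes from -0.11 to 0.06 in cid14delta and from -0.16 to 0.19 in air1delta; 0 and 2 of them had an unadjusted p under 0.05. Other scalings made calls in air1delta: wis4 lower with each array centred on its median, and wis4 lower and sty1 higher after quantile normalization. Of 5 phosphatase genes, pyp2 and ptc2 (0.28 ± 0.06, limma adjusted p = 0.0274), a type 2C protein phosphatase gene, rose in air1delta, 0 fell and 3 did not pass. The ptc2 call was lost with each array centred on its median. In cid14delta 0 of the 5 were called and 2 had an unadjusted p under 0.05. Of 3 genes that act downstream of Sty1, the kinase gene cmk2 fell in air1delta (-0.34 ± 0.08, limma adjusted p = 0.0371), srk1 and csx1 did not pass, and 0 were called in cid14delta, where 2 had an unadjusted p under 0.05.

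Of 8 stress transcription factor genes, atf31 rose in both mutants and the other 7, atf1 and pcr1 among them, did not pass in either. The gene atf31 (SPAC22F3.02), a bZIP factor gene of the ATF family, rose by 1.06 ± 0.15 in cid14delta (2.08-fold, limma adjusted p = 0.0271) and by 0.81 ± 0.15 in air1delta (1.75-fold, limma adjusted p = 0.021). Its mean log2 signal was 5.62 in wild type, 6.68 in cid14delta and 6.43 in air1delta. The mutants differed by -0.25 ± 0.15 (limma adjusted p = 0.308). With each array centred on its median pap1 and prr1 were also called in air1delta, both lower.

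Of 6 genes of glycerol metabolism, gpd1 did not pass in either mutant. Among the others gut2, the mitochondrial glycerol-3-phosphate dehydrogenase gene, rose by 0.85 ± 0.14 in cid14delta (limma adjusted p = 0.0306) and by 0.74 ± 0.14 in air1delta (limma adjusted p = 0.0206). The gene gpd2, a second glycerol-3-phosphate dehydrogenase gene, fell by 0.70 ± 0.09 in cid14delta (limma adjusted p = 0.0225) and by 0.38 ± 0.09 in air1delta (limma adjusted p = 0.0304). The dihydroxyacetone kinase genes dak1 (0.28 ± 0.07, limma adjusted p = 0.0337) and dak2 (0.67 ± 0.08, limma adjusted p = 0.00903) rose in air1delta. In all, 1 rose, 1 fell and 4 did not pass in cid14delta, and 3 rose, 1 fell and 2 did not pass in air1delta. With each array centred on its median dak1 was no longer called in air1delta, and 1 more gene, gld1, was called lower in cid14delta. The median change over the 6 genes was -0.09 in cid14delta and 0.17 in air1delta.

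Of 4 trehalose genes, tps3 fell in air1delta (-0.35 ± 0.08, limma adjusted p = 0.0358), tps1, tpp1 and ntp1 did not pass, and 0 were called in cid14delta, where 1 had an unadjusted p under 0.05. Of 14 genes for glucose sensing and protein kinase A, cgs1, the regulatory subunit gene, rose in air1delta (0.31 ± 0.07, limma adjusted p = 0.0322), 0 fell and 13 did not pass. That call was lost after quantile normalization (0.23, limma adjusted p = 0.0688) and with each array centred on its median, and under either scaling 2 genes of the list were called lower in air1delta. In cid14delta 0 of the 14 were called, also at an unadjusted p under 0.05, with scr1 at -0.16 ± 0.07 and cgs2 at -0.17 ± 0.09.

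In a list of 12 genes that holds fbp1 and genes of glycolysis, fbp1 had the only positive change in cid14delta, and the median was -0.28 in cid14delta and -0.12 in air1delta. The phosphoglycerate kinase gene pgk1 (-0.38 ± 0.06, limma adjusted p = 0.0306) and the phosphoglucose isomerase gene pgi1 (-0.34 ± 0.07, limma adjusted p = 0.0488) fell in cid14delta. In air1delta 4 fell, led by pgi1 (-0.41 ± 0.07, limma adjusted p = 0.0186) and the phosphofructokinase gene pfk1 (-0.37 ± 0.08, limma adjusted p = 0.0246). The remaining 10 and 8 did not pass. After quantile normalization 1 gene was called lower in each mutant and the medians were -0.21 and -0.03, and with each array centred on its median 6 and 4 genes were called lower.

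Of 15 other stress-responsive genes, hsp16, a small heat shock protein gene, rose in cid14delta by 1.37 ± 0.23 (limma adjusted p = 0.0317). The gene gst2, which encodes a glutathione S-transferase, rose there by 0.80 ± 0.14 (limma adjusted p = 0.0344), 0 fell and 13 did not pass. Both calls in cid14delta were lost with the replicate block (limma adjusted p = 0.06 for hsp16 and 0.0561 for gst2). In air1delta hsp16, gst2 (0.82 ± 0.14, limma adjusted p = 0.0177), tms1 (0.78 ± 0.14, limma adjusted p = 0.0182), ubi4, obr1 and uvi15 rose, 0 fell and 9 did not pass. With each array centred on its median obr1 and ubi4 were no longer called. With the replicate block the air1delta calls of hsp16 (limma adjusted p = 0.0507) and obr1 (limma adjusted p = 0.0533) were lost. The air1delta arrays of hsp16 differed by 0.67, a gap reached by 1.37% of all features in air1delta. The median change over the 15 genes was 0.16 in cid14delta and 0.31 in air1delta, above the 0.03 of all features in both. In wild type 10 of the 15 were higher on replicate 2 than on replicate 1, with a median gap of 0.23 against -0.01 over all features, beside the 0.85 of hsp9. The part of this gap in the results was not tested.

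Markers of sporulating or starved cells were read beside isp3 and rds1. Of 13 sporulation genes, isp3 included, 0 were called in cid14delta, where 2 had an unadjusted p under 0.05. In air1delta meu10 rose (0.86 ± 0.18, limma adjusted p = 0.0266) and 12 did not pass. Of 15 nitrogen starvation and mating genes 1 rose and 3 fell in cid14delta, and 1 rose and 4 fell in air1delta. These include the pheromone receptor gene mam2, which rose in cid14delta (0.65 ± 0.07, limma adjusted p = 0.0157), and the pheromone gene mfm2, which fell there from a mean log2 signal of 5.74 to 4.64 (limma adjusted p = 0.0231), below the level of a deleted gene. Also among them were mam3 (-0.72 ± 0.09, limma adjusted p = 0.00934) and isp4 (-0.57 ± 0.10, limma adjusted p = 0.0179), the coding gene next to atf1, both of which fell in air1delta. The list median was -0.20 in cid14delta and -0.07 in air1delta. The part of these markers in the changes of the 10 genes was not tested.

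**Figure D5:**
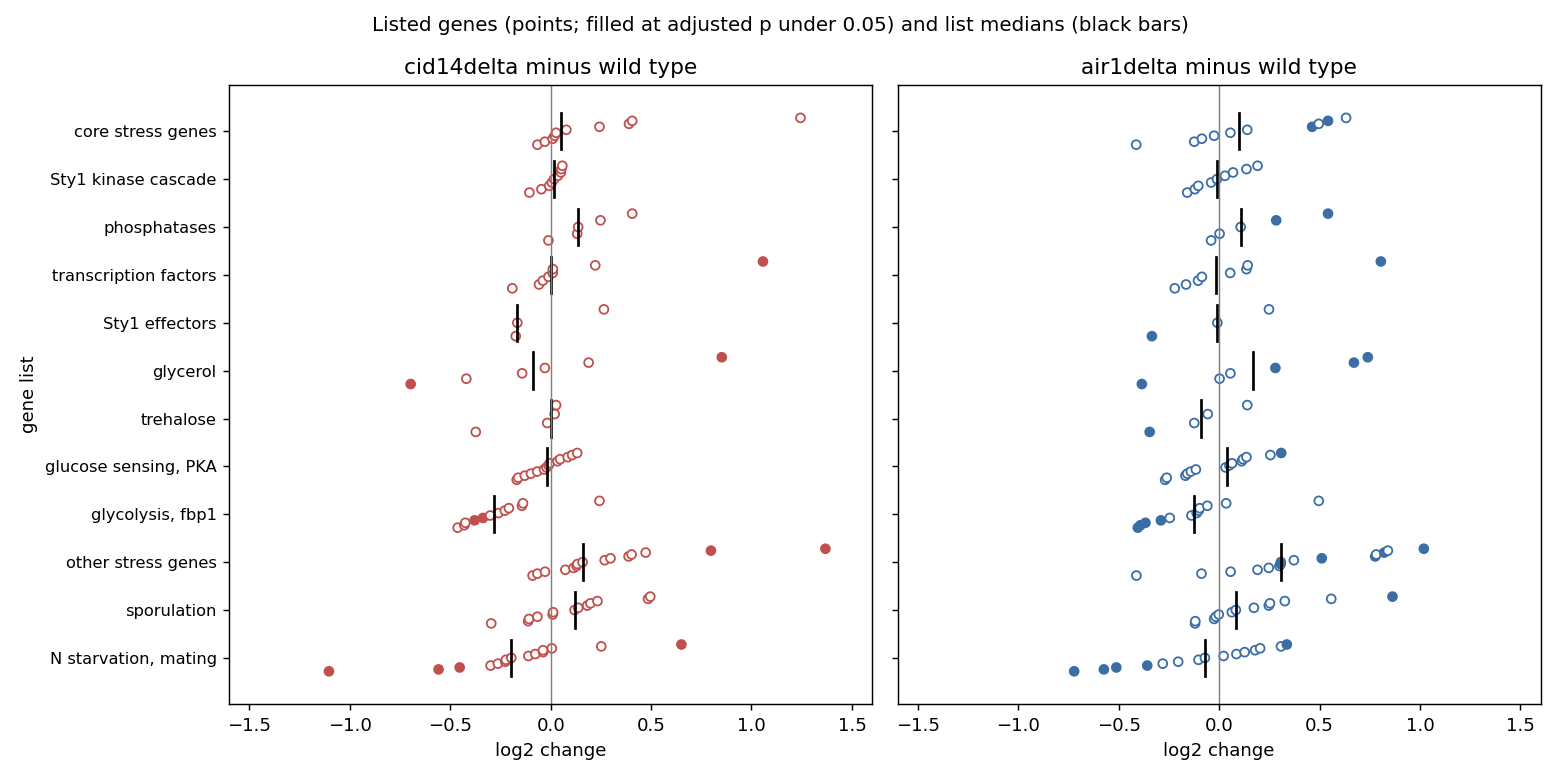
The log2 change (horizontal axis) of each listed gene in cid14delta minus wild type and in air1delta minus wild type, by list (vertical axis). Points are genes, filled where limma's adjusted p was under 0.05, and black bars are list medians. The Sty1 kinase cascade stays between -0.16 and 0.19 in both panels, and atf31 is the filled point among the transcription factors.

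Further genes of these lists were called only under another scaling: tps3 lower in cid14delta with each array centred on its median, and, after quantile normalization, csx1 higher and spo3 and zym1 lower in air1delta and obr1 higher in cid14delta. The calls on the other listed genes rested on 2 arrays per strain. Of 96 such genes 11 were called in cid14delta and 25 in air1delta, the latter a share close to the 26.2% of all features. Leaving out an array leaves its strain without a replicate. Over all features, most calls of a mutant were lost when an array of that mutant was left out. Such fits therefore cannot decide on the calls of these genes. Wild-type and cid14delta arrays of the same number share a date in the labels; with the replicate number as a block the calls of atf31, gpd2, gut2, mam2 and mfm2 in cid14delta were still made, 5 of the 11. Those of hsp16, gst2, pgk1, pgi1, isp6 and isp7 were lost, and 179 features in place of 475 were called in all.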

How the data were processed

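The authors deposited 1 table with a log2 value for each of 5483 features on 6 arrays. That the scale is log2 was judged from its range of 2.75 to 14.8. The affy package is named in the submitters' processing notes; how background was corrected, arrays normalized and probes summarised, and on which genome build, is not given in the sources used here. All columns were used as deposited, with no filter. Systematic IDs were matched to a reference table (assembly ASM294v3) for names and neighbours; 5353 matched, 16 of them through a synonym.

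A linear model with the strain as its factor was fitted to all features and 6 arrays with limma 3.58.1 in R 4.3.3 (3 residual and 2.51 prior degrees of freedom), two-sided, with p-values adjusted over all features by Benjamini-Hochberg and calls at an adjusted p under 0.05. It was also run on simulated data with independent noise and 200 features changed in cid14delta alone. That setting is simpler than these arrays, and its outcome is not used here. Precision is limited by the number of arrays, and p-values measure the spread between biological replicates as the labels name them.

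The 10 genes, the lists and the naming rule were chosen with earlier results of these data known. Named were the 10 genes, every called gene of the signalling, glycerol and trehalose lists, and the smallest p-values of the other lists. Genes named because a call was lost or gained under another setting were chosen after their values were seen. The symbols pck1 and mkh1 were dropped from the lists because their products have other roles. Promoter motifs were not analysed here.

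Dates in the labels pair same-numbered wild-type and cid14delta arrays, and the deviations of these arrays correlated at r = -0.00632. No air1delta array shares a date with another array, so a block for replicate number pairs those arrays by number only. Alternatives were other scalings, blocks for replicate number or day, fits of 4 arrays, a filter on dim features, an intensity trend, and leaving out each array.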

Additional observations from a re-analysis of the deposited data

Results flagged for a closer look

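The effects of both deletions differed by limma's test of air1delta against cid14delta for 8 of the listed genes outside the 10 core stress genes, out of 96, where 10% of all features were called in this comparison. In air1delta relative to cid14delta, dak1 was higher by 0.42 ± 0.07 (log2 change ± SE, limma adjusted p = 0.0295) and dak2 by 0.48 ± 0.08 (0.031). The gene tms1 was higher by 0.87 ± 0.14 (0.0295) and isp6 by 0.63 ± 0.08 (0.0219). The measured difference of mfm2 was 1.001 (0.0277), but its cid14delta signal lay below the level of a deleted gene, so the size of this difference cannot be read. The glucose receptor gene git3 had a change of -0.40 ± 0.08 (0.0414), mam2 of -0.31 ± 0.07 (0.0479) and mam3 of -0.73 ± 0.09 (0.0219). Leaving out a mutant array leaves 1 array in its strain, where nearly all calls over all features were lost, so such fits cannot decide on these 8. With the replicate block 1 of the 8, mam3, was still called, where 72 features in place of 549 were called in all. Strain and array series cannot be told apart in this comparison.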

How the results depend on the processing

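Over 30 results for the 10 genes and 14 other settings, 373 values kept their direction and their side of limma's threshold, 14 passed only there, 12 no longer passed and 21 turned sign. The number of the 10 genes called in cid14delta was 2 with dim features left out (11.8% of all features called) and 1 with an intensity trend (12.7%). In air1delta it was 0 after quantile normalization (23.3%), 1 in a fit of the 4 arrays compared (15.9%) and 0 with the replicate block in those 4 arrays (3.79%). Between the mutants it was 1 in the fit of 4 arrays (8.9%) and 1 with the trend (15.0%). Fits without a single array leave 1 array in a strain, so the number of the 10 genes called in them is not given. With the replicate block in all 6 arrays the number was 0 in cid14delta, 3 in air1delta (fbp1 added, limma adjusted p = 0.0257) and 0 between the mutants. Of all features 3.26%, 20.4% and 1.31% were called with that block. The air1delta arrays enter that block by number only, since they share no date with another array.

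The values that turned sign were small. In cid14delta they were -0.057 (atf1), -0.046 (tps1) and -0.039 (ntp1) with each array centred on its median, and -0.016 (atf1), 0.023 (gpd1) and -0.037 (ntp1) after quantile normalization. For gpd1 in air1delta centring gave -0.016, and for isp3 between the mutants quantile normalization gave -0.007. When single arrays were left out, changes in cid14delta ran from -0.028 to 0.047 (atf1), -0.105 to 0.047 (gpd1), -0.023 to 0.064 (tps1), -0.006 to 0.06 (ntp1) and -0.052 to 0.209 (rds1). In air1delta they ran from -0.175 to 0.004 (atf1), -0.02 to 0.132 (gpd1) and -0.079 to 0.029 (isp3), and between the mutants from -0.057 to 0.202 (ish1) and -0.013 to 0.095 (isp3). The cause of these turns was not tested.

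Over all features, calls in cid14delta numbered 475 and ranged from 1 (without cid14delta replicate 1 or 2, and with the replicate block in 4 arrays) to 695 (intensity trend). In air1delta 1434 became 208 with that block and 273 without air1delta replicate 2. Between the mutants 549 became 72 with the block in 6 arrays and 2 to 6 without single mutant arrays. The share of calls that were higher moved from 55.2% to 34.9% in cid14delta and from 62.8% to 43.7% in air1delta with each array centred.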
